A study of Mus musculus with 19 samples.

Results

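Hnf4a, Hnf4g, Pax2, Pax8, Lhx1, Esrrg, Tfap2b and Maf, 8 transcription factors that hold the identity of kidney tubule cells, were followed by their gene names through a count table of 54532 genes, and all 8 were found. The table came from bulk RNA-seq of whole left kidneys of 19 male mice, 8 to 9 weeks old and on a C57BL/6J background. In every mouse the left ureter had been tied and cut, the unilateral ureteral obstruction (UUO) model of tubular injury and fibrosis, and the obstructed kidney was taken on day 12. The 4 groups were WT mice given PBS (n = 5), WT mice given rCD5L (n = 5), CD5L KO mice given PBS (n = 4) and CD5L KO mice given rCD5L (n = 5). Dosing was daily and intraperitoneal, with 0.5 mg of the recombinant protein (rCD5L) for each treated mouse and PBS alone in a matched volume for each control. CD5L is a circulating protein of macrophage origin, and the comparisons ask whether its loss or its supply was accompanied by other levels of the factors in obstructed tissue. The labels describe all 19 kidneys as obstructed, and no unobstructed kidney was analysed here. The labels do not say how the CD5L KO allele was made.

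Nephron cells keep their segment identity through transcription factors that bind the promoters and enhancers of transport and metabolic genes. HNF4A and HNF4G are related nuclear receptors, of which HNF4A drives the maturation of the proximal tubule, and PAX2 and PAX8 are paired-box factors that set up the nephron lineage in the embryo and persist in tubule and collecting duct cells. LHX1 is a LIM homeodomain factor of the early nephron, ESRRG an orphan nuclear receptor of mitochondria-rich epithelial cells, TFAP2B an AP-2 factor of the distal nephron, and MAF a leucine zipper factor of several lineages, macrophages among them. Differentiated tubule programs are known to fall in injured kidneys, and PAX2 is known to be taken up again by regenerating tubule cells.

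Total counts lay between 1.79e+07 and 2.38e+07 per kidney, and the 8 factors took 0.0565% to 0.102% of them. All 8 passed the filter on low counts. Cd5l, the deleted gene, had 0 counts in every CD5L KO kidney, 5 to 13 counts in WT kidneys given PBS and 3 to 15 in WT kidneys given rCD5L. Of 19 markers of the proximal tubule, the main cell type of the kidney cortex, none was at 0 throughout a group. Replicate 4 of CD5L KO given rCD5L stood apart from the 18 others. Its proximal tubule marker sum was 42178 CPM (counts scaled to library size) against 3101 to 6713, while its injured tubule sum was 10077 against 14583 to 28296 and its macrophage sum 849 against 2099 to 3446. Replicate 3 of the same group also differed, with a TMM scaling factor of 0.874 against 0.968 to 1.07 in the kidneys other than these 2. Replicate 4 thus had less of the injury, macrophage and fibrosis signal than every other kidney labelled as obstructed, and whether its obstruction was complete was not tested. Fold changes of the 8 factors that involve these 2 kidneys are also given without replicate 4, and some of them, like the correlations, without both.

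Coordinates are in GRCm38 as the files give them. Hnf4a (ENSMUSG00000017950) lies on the plus strand at chr2:163506808-163572910 and its relative Hnf4g (ENSMUSG00000017688) on the plus strand at chr3:3508030-3658052. Pax2 (ENSMUSG00000004231) lies on the plus strand at chr19:44756045-44837871, and Pax8 (ENSMUSG00000026976) on the minus strand at chr2:24420560-24475599. Lhx1 (ENSMUSG00000018698) is at chr11:84518284-84525535 on the minus strand, Esrrg (ENSMUSG00000026610) at chr1:187608791-188214885 on the plus strand, Tfap2b (ENSMUSG00000025927) at chr1:19208914-19238576 on the plus strand and Maf (ENSMUSG00000055435) at chr8:115682942-115707794 on the minus strand. All 8 are protein-coding. Hnf4a overlaps the antisense gene Hnf4aos, which had 15 to 186 counts per kidney, and the other genes that overlap a factor had at most 30. The strand setting of the counting is not given in the sources used here, so reads of a factor and of its antisense partner may not have been told apart. The transcripts of Hnf4a and Hnf4g share no stretch longer than 17 bases, and those of Pax2 and Pax8 none longer than 27, both far below the read length of 150.

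Promoter windows were found for 6 of the 8 factors in RefSeq (GRCm38.p6), and Hnf4g and Maf had no entry in the table used. The windows of Hnf4a, the most abundant factor, and of Pax2 and Tfap2b, the 2 with the smallest p-values in WT mice given rCD5L, are shown in the direction of transcription and without annotated exons. Capitals mark matches on either strand to any of 6 motifs: the HNF1 motif GTTAAT, the HNF4 site CAAAGTCCA, the estrogen-related receptor site AAGGTCA, the AP-2 site GCCNNNGGC, the homeodomain core TAATTA and the MAF motif TGCTGAC. The Hnf4a window is at chr2:163546943-163547154, before the downstream of its 2 RefSeq starts, the Pax2 window at chr19:44755502-44755751, and the Tfap2b window at chr1:19211804-19212053, all on the plus strand.
Hnf4a: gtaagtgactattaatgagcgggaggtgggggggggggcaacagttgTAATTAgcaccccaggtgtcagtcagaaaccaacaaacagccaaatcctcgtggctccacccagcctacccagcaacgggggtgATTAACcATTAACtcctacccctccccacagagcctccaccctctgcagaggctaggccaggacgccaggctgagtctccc
Pax2: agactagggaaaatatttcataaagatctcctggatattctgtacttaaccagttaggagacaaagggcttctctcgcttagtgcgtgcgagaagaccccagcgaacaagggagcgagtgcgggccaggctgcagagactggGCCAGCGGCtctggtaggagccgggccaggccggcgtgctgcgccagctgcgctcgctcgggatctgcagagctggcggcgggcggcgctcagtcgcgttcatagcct
Tfap2b: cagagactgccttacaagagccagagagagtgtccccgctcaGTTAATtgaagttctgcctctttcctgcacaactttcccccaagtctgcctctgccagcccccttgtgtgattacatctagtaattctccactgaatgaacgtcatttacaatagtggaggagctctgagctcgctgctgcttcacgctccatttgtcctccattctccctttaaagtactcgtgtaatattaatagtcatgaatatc
The Hnf4a window held 2 HNF1 motifs 1 base apart, 81 to 76 and 74 to 69 bases before the start, and a homeodomain core at 165 to 160 bases. The Tfap2b window held 1 HNF1 motif and the Pax2 window 1 AP-2 site, and no 2 matches overlapped. The table held other windows for Hnf4a and Pax2, 1 before the upstream Hnf4a start and 2 for Pax2, and these had 0 matches. Among 32851 windows of 250 bases in the same table, 6.43% held GTTAAT, 13.7% GCCNNNGGC and 4.84% TAATTA. A match describes the letters only. The RefSeq starts differ from the gene starts listed above. The Pax2 window shown ends short of the gene start, and those of Hnf4a and Tfap2b lie inside the gene coordinates. Counts were made per gene and do not tell which of the starts was used.

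Levels between genes were compared in FPKM, the counts per length deposited by the authors. Hnf4a was the most abundant, with a mean of 46.7 FPKM ± 25.4 (SD, n = 19), or 41.1 ± 7.17 (SD, n = 18) without replicate 4 of CD5L KO given rCD5L, and it was above Pax8 in 19 of 19 kidneys. Pax8 at 15.2 ± 1.80 and Maf at 14.7 ± 3.05 did not differ beyond their spread, with Pax8 the higher in 12 of 19 kidneys. Esrrg followed at 8.05 ± 1.39, below Maf in every kidney, and Pax2 at 5.43 ± 0.835, below Esrrg in 18 of 19. Tfap2b at 4.91 ± 0.602 was close to Pax2, which was the higher in 16 of 19 kidneys. Lhx1 at 2.46 ± 0.438 and Hnf4g at 1.81 ± 0.457 were the lowest, and Lhx1 was above Hnf4g in 18 of 19. Within the pairs of relatives, Hnf4a made up 95.4% ± 0.955 (SD, n = 4) to 96.4% ± 0.907 (SD, n = 5) of the summed Hnf4a and Hnf4g FPKM by group, and Pax2 made up 25.1% ± 1.68 (SD, n = 5) to 28.0% ± 1.74 (SD, n = 5) of the summed Pax2 and Pax8 FPKM. In CD5L KO given rCD5L without replicate 4 the shares were 95.5% ± 1.37 and 25.2% ± 3.75 (SD, n = 4).

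**Figure D1:**
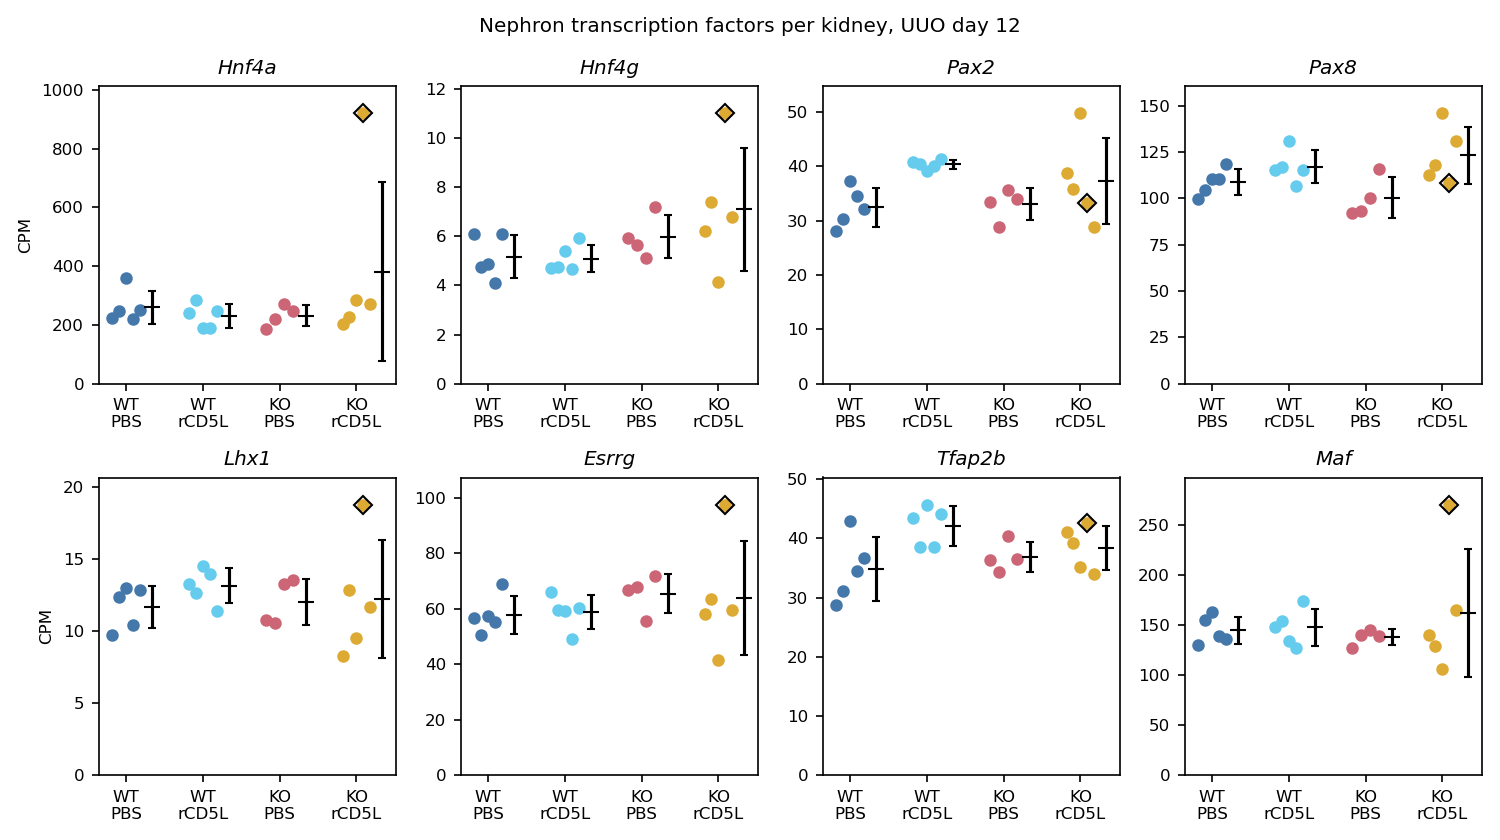
CPM of each factor in every kidney, by group, with the mean and SD beside the points. The diamond marks replicate 4 of CD5L KO given rCD5L, which had the highest Hnf4a, Hnf4g, Lhx1, Esrrg and Maf of all 19 kidneys, and the 5 WT kidneys given rCD5L lie at 39.1 to 41.4 CPM for Pax2.

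Loss of CD5L was not accompanied by a called change in any of the 8 factors. Among 17579 genes tested between CD5L KO and WT mice given PBS, 10.5% were called at an adjusted p-value under 0.05 (edgeR quasi-likelihood test with Benjamini-Hochberg adjustment), and 0 of the 8 factors were. At an unadjusted p-value under 0.05 the shares were 26.6% of all genes and 0 of the 8. The adjusted count over all genes varied with the processing. It was 12 of 18454 in 1 fit of all 19 kidneys and 2498 of 17579 with DESeq2, with 0 of the 8 in both. The CPM of the groups overlapped for all 8, whereas 14.1% of all genes did not overlap. Bulk RNA does not tell fewer cells of a type from less RNA per cell, here or in the comparisons that follow.

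Of the HNF4 receptors, Hnf4a was at 185, 221, 270 and 247 CPM in the CD5L KO kidneys and at 223, 246, 358, 219 and 251 CPM in the WT kidneys. The ranges overlapped, and the WT group contained 1 kidney, replicate 3, well above its other 4. The log2 fold change was -0.17 (SE 0.144, 95% CI -0.49 to 0.14, adjusted p = 0.481), and -0.03 without that kidney. Hnf4g had a mean of 5.98 ± 0.876 CPM (SD, n = 4) in CD5L KO and 5.18 ± 0.889 (SD, n = 5) in WT, with a log2 fold change of 0.20 (95% CI -0.15 to 0.55).

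The paired-box factors lay within narrow bounds. Pax2 was at 33.0 ± 2.95 CPM (SD, n = 4) in CD5L KO and 32.5 ± 3.62 (SD, n = 5) in WT, a log2 fold change of 0.02 with a 95% CI of -0.18 to 0.21. Pax8 was at 92.2, 93.1, 100.02 and 116 CPM in CD5L KO and at 99.8, 104, 110.2, 111 and 119 in WT. The lowest 2 kidneys for Pax8 were both CD5L KO, but the ranges overlapped, and the log2 fold change of -0.12 (SE 0.0752, 95% CI -0.29 to 0.04) had an adjusted p of 0.322 in edgeR.

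Among the remaining factors, Esrrg had the smallest p-value. It was at 66.6, 67.8, 55.4 and 71.6 CPM in CD5L KO and at 56.6, 50.4, 57.5, 55.2 and 69.0 in WT. Of the 4 CD5L KO kidneys, 3 exceeded 4 of the 5 WT kidneys, and the log2 fold change was 0.17 (SE 0.0938, 95% CI -0.03 to 0.38, edgeR adjusted p = 0.264). Lhx1 (0.03, 95% CI -0.23 to 0.30), Tfap2b (0.08, 95% CI -0.15 to 0.30) and Maf (-0.07, 95% CI -0.23 to 0.08) had log2 fold changes closer to 0. The intervals of Pax2, Pax8, Lhx1, Tfap2b and Maf all stayed within 0.30 of 0 on the log2 scale, whereas those of Hnf4a, Hnf4g and Esrrg were wider.

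**Figure D2:**
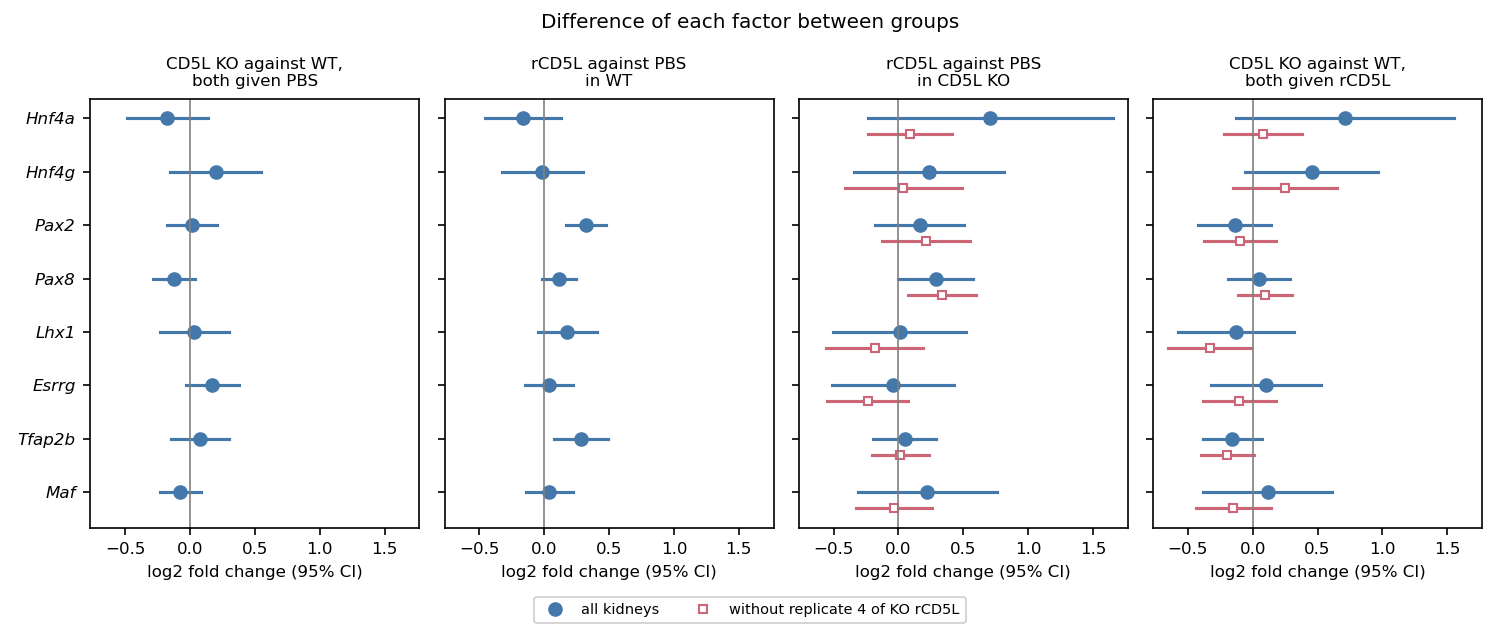
Log2 fold change of each factor with its 95% CI in 4 comparisons. Filled points are fits with all kidneys of the 2 groups and open squares leave out replicate 4 of CD5L KO given rCD5L; the interval of Pax2 in WT mice, 0.17 to 0.48, and that of Tfap2b lie above 0, and Hnf4a moves from 0.71 to 0.09 without that kidney.

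Daily rCD5L in WT mice was accompanied by higher Pax2 in all 5 kidneys, a difference that did not pass the adjusted threshold. Pax2 was at 40.9, 40.4, 39.1, 40.1 and 41.4 CPM with rCD5L and at 28.1, 30.3, 37.4, 34.5 and 32.2 CPM with PBS. The lowest rCD5L kidney was above the highest PBS kidney, and the SD was 0.858 CPM with rCD5L against 3.62 with PBS. The log2 fold change was 0.32 (SE 0.0707, 95% CI 0.17 to 0.48), with an unadjusted p of 0.000426 and an adjusted p of 0.104 by edgeR, which ranked Pax2 in place 57 of 17455 genes. By this test 0% of all genes and 0 of the 8 factors were called. The CPM of the 2 groups did not overlap for 1 of the 8 factors and for 3.60% of all genes, and 1.69% of all genes were without overlap and higher. With DESeq2 the adjusted p of Pax2 was 0.0114 (471 genes called), and without the filter on low counts it was 0.0457 in edgeR (137 genes called). Over all alternatives it ranged from 0.0114 to 0.9998, the highest in the fit of all 19 kidneys together, and leaving out each kidney in turn gave log2 fold changes of 0.27 to 0.38, all with adjusted p-values above 0.05.

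Tfap2b, the AP-2 factor, had the next smallest p-value in WT mice. It was at 43.4, 38.5, 45.7, 38.6 and 44.1 CPM with rCD5L and at 28.8, 31.2, 43.0, 34.5 and 36.6 with PBS. Each rCD5L kidney was above 4 of the 5 PBS kidneys, and PBS replicate 3 overlapped with them. The log2 fold change was 0.28 (SE 0.0964, 95% CI 0.08 to 0.49), with an unadjusted p of 0.0104 and an adjusted p of 0.173 by edgeR. At an unadjusted p under 0.05 stood 2 of the 8 factors, Pax2 and Tfap2b, and 16.0% of all genes.

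The other 6 factors had intervals that included 0 in WT mice. Pax8, the relative of Pax2, was at 117 ± 8.88 CPM (SD, n = 5) with rCD5L and at 109 ± 7.10 (SD, n = 5) with PBS. Its log2 fold change was 0.12 with a 95% CI of -0.02 to 0.25. Lhx1 had a log2 fold change of 0.18 (95% CI -0.04 to 0.40), Esrrg of 0.04 (95% CI -0.15 to 0.22) and Maf of 0.04 (95% CI -0.14 to 0.22). Hnf4a was at 239, 283, 191, 189 and 249 CPM with rCD5L, and its log2 fold change against the PBS values given above was -0.16 (SE 0.137, 95% CI -0.46 to 0.13). This value also leaned on PBS replicate 3, without which it was -0.02. Hnf4g differed by -0.01 on the log2 scale, with an interval of -0.32 to 0.30.

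Markers of the nephron segments were read in the same kidneys. Of 19 proximal tubule markers, 0 had a positive log2 fold change in WT mice given rCD5L and 0 were called, with a median of -0.49 against 0.00 over all genes. The summed level of these markers ranged from 3101 to 4324 CPM with rCD5L and from 3482 to 6713 with PBS, and Slc27a2, a fatty acid transporter and the most abundant of them, had means of 748 ± 64.2 and 879 ± 212 CPM (SD, n = 5 each). The thick ascending limb sum ranged from 2370 to 3259 CPM with rCD5L and from 1773 to 3486 with PBS. Of 10 collecting duct markers 5 had a positive log2 fold change (median -0.01), and of 6 tested distal convoluted and connecting tubule markers 3 (median -0.04). Lymphocyte markers were positive in 6 of 6 (median 0.38), with sums of 36.8 to 56.7 CPM with rCD5L and 24.4 to 53.9 with PBS. Markers of the epididymis, a male reproductive duct, were positive in 5 of 5 tested (median 0.81), at sums of 15.9 to 39.9 CPM with rCD5L and 11.9 to 24.8 with PBS, and 0 markers of these lists were called. Endothelial markers were positive in 1 of 5 (median -0.15), at sums of 462 to 512 CPM with rCD5L and 509 to 572 with PBS. Urothelium markers were positive in 0 of 5 (median -0.20), at sums of 48.4 to 177 and 20.1 to 151 CPM, and 0 of either list were called. The part of these cells in the Pax2 and Tfap2b values was not tested.

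In CD5L KO mice, 0 of the 8 factors and 0% of 17467 genes were called between rCD5L and PBS, and 0 of the 8 and 2.35% of all genes had CPM without overlap. At an unadjusted p under 0.05 stood 502 genes (2.87%) and none of the factors, and DESeq2 called 10 genes, again none of the factors. For Hnf4a, the spread of the rCD5L group was set by replicate 4. It was at 202, 228, 284, 921 and 272 CPM with rCD5L against 185, 221, 270 and 247 with PBS. Replicate 4 was 3.81 times the median of the 18 other kidneys, and the other 4 kidneys overlapped with the PBS group. The log2 fold change was 0.71 (SE 0.426, 95% CI -0.23 to 1.65) with all kidneys, 0.09 (SE 0.148, 95% CI -0.24 to 0.42) without replicate 4 and 0.02 with neither replicate 3 nor 4, a setting chosen after seeing the data. In these 2 settings 0 of the 8 factors were called or without overlap, against 0% of all genes called and 5.13% and 10.4% without overlap.

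Replicate 4 had the highest level of 5 factors among all 19 kidneys. Hnf4g was at 11.04 CPM there against 4.08 to 7.39 in the others, Maf at 270.1 against 105 to 174, Esrrg at 97.5 against 41.4 to 71.6 and Lhx1 at 18.8 against 8.28 to 14.5. These were 1.99, 1.94, 1.64 and 1.5 times the median of the others, all smaller ratios than that of Hnf4a. Pax2 at 33.2 CPM, Pax8 at 108 and Tfap2b at 42.5 lay inside the range of the others. The same kidney held 5740 CPM of thick ascending limb markers against 1773 to 3486 and 3173 of distal convoluted and connecting tubule markers against 426 to 938. It held 1283 CPM of fibroblast and myofibroblast markers against 2426 to 5259. Over the whole list, 19 of 19 proximal tubule markers had a positive log2 fold change between rCD5L and PBS in CD5L KO mice (median 1.34), 11 of 19 without replicate 4 (median 0.01) and 2 of 19 with neither replicate 3 nor 4 (median -0.18). Epididymis markers were positive in 5 of 5 tested (median 1.42), in 4 of 4 without replicate 4 (median 1.39) and in 4 of 4 with neither replicate 3 nor 4 (median 1.03), and 0 were called. Their sums were 23.6 to 62.7 CPM with rCD5L and 8.48 to 22.0 with PBS, without overlap. The part of its makeup in the factor levels was not tested.

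Pax8 had the smallest p-value of the 8 in CD5L KO mice. It was at 112, 118, 146, 108 and 131 CPM with rCD5L and at 92.2, 93.1, 100.02 and 116 with PBS. All 5 rCD5L kidneys were above 3 of the 4 PBS kidneys, and PBS replicate 4 overlapped with them. The log2 fold change was 0.29 (SE 0.131, 95% CI -0.01 to 0.58, edgeR adjusted p = 0.897). It was 0.34 (95% CI 0.08 to 0.60, edgeR adjusted p = 0.763) without replicate 4 and 0.27 (95% CI 0.06 to 0.47, edgeR adjusted p = 0.419) with neither replicate 3 nor 4. Over all alternatives its adjusted p ranged from 0.397 to 0.999995. The part of the higher epididymis sums in the Pax8 and Pax2 values was not tested.

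Pax2 did not separate the groups in CD5L KO mice as it did in WT mice. It was at 38.8, 35.8, 49.8, 33.2 and 28.9 CPM with rCD5L and at 33.4, 28.8, 35.7 and 34.1 with PBS, with a log2 fold change of 0.16 (95% CI -0.18 to 0.51). The highest value was that of replicate 3. The log2 fold change was 0.21 (95% CI -0.12 to 0.55) without replicate 4, and with neither replicate 3 nor 4 it was 0.07 (95% CI -0.17 to 0.31). Tfap2b had a log2 fold change of 0.05 (95% CI -0.20 to 0.29), which was 0.02 without replicate 4. Lhx1, Esrrg and Maf changed from 0.01, -0.04 and 0.22 with all kidneys to -0.18, -0.24 and -0.03 without replicate 4, and Hnf4g from 0.24 to 0.04, with intervals that included 0 in each case.

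Whether the response to rCD5L differed between the genotypes was tested by the interaction term over all 4 groups, and 0 of the 8 factors and 0% of 18454 genes were called. At an unadjusted p under 0.05 stood 1154 genes (6.25%) and none of the factors, and DESeq2 also called 0 genes. For Pax2 the difference of the log2 fold changes, CD5L KO minus WT, was -0.14 (SE 0.168, 95% CI -0.49 to 0.22, edgeR adjusted p = 0.859), and -0.25 (95% CI -0.52 to 0.02, edgeR adjusted p = 0.965) with neither replicate 3 nor 4. Hence the higher Pax2 in WT mice was not shown to be absent in CD5L KO mice. For Tfap2b the difference was -0.22 (95% CI -0.52 to 0.09) and for Hnf4a 0.90 (95% CI -0.07 to 1.86), which fell to 0.25 without replicate 4. It was 0.27 (95% CI -0.34 to 0.87) for Hnf4g, 0.19 (95% CI -0.09 to 0.47) for Pax8, -0.15 (95% CI -0.67 to 0.36) for Lhx1, -0.06 (95% CI -0.54 to 0.42) for Esrrg and 0.20 (95% CI -0.34 to 0.74) for Maf. Without replicate 4 the values of Hnf4g, Lhx1, Esrrg and Maf moved to 0.05, -0.36, -0.27 and -0.07, while Pax8 at 0.22, Pax2 at -0.11 and Tfap2b at -0.27 stayed closer to the values with all kidneys, and all 7 intervals included 0. With neither replicate 3 nor 4 they were 0.21 for Hnf4g, 0.16 for Pax8, -0.31 for Lhx1, -0.15 for Esrrg, 0.04 for Maf and -0.23 for Tfap2b.

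Between the genotypes under rCD5L, 0 of the 8 factors and 0% of 17360 genes were called. At an unadjusted p under 0.05 stood 3090 genes (17.8%) and none of the 8, and DESeq2 called 120 genes and none of the 8. All 8 factors overlapped between the groups, whereas 7.52% of all genes did not, and without replicate 4 again all 8 overlapped against 8.49% of all genes that did not. Hnf4a had a log2 fold change of 0.71 (95% CI -0.13 to 1.55) with all kidneys and of 0.08 (95% CI -0.22 to 0.38) without replicate 4. Lhx1 went from -0.13 (95% CI -0.58 to 0.32) to -0.33 (95% CI -0.65 to -0.01, edgeR adjusted p = 0.299) without it. Tfap2b stood at -0.16 and -0.19, Pax8 at 0.05 and 0.09, Esrrg at 0.10 and -0.10 and Maf at 0.11 and -0.15, with intervals that included 0 in both settings. With neither replicate 3 nor 4, 3.58% of 18012 genes and still 0 of the 8 factors were called, and 2 of the 8 no longer overlapped, against 14.5% of all genes. These 2 were Pax2, lower in CD5L KO with a log2 fold change of -0.24 (95% CI -0.42 to -0.06, edgeR adjusted p = 0.126), and Hnf4g, higher with 0.40 (95% CI 0.09 to 0.72, edgeR adjusted p = 0.133). With all kidneys these values were -0.14 (95% CI -0.42 to 0.14) and 0.46 (95% CI -0.06 to 0.97), and without replicate 4 alone they were -0.10 (95% CI -0.37 to 0.18) and 0.25 (95% CI -0.15 to 0.65). Over the alternatives the adjusted p ranged from 0.126 to 0.815 for Pax2 and from 0.122 to 0.601 for Hnf4g. In this setting 2 of 6 thick ascending limb markers were called lower and 3 of 19 proximal tubule markers higher, along with 1 of 6 injured tubule markers higher, 2 of 8 fibroblast and myofibroblast and 2 of 5 endothelial markers lower, and 1 of 6 distal convoluted and connecting tubule markers in each direction. The part of these cells in the Pax2 and Hnf4g values was not tested. Irx2, a homeobox factor and 1 of the 18 other distal factors, was also called there, with a log2 fold change of -0.34 (SE 0.0808, edgeR adjusted p = 0.0439). It stood at -0.37 (edgeR adjusted p = 0.259) with all kidneys and at -0.35 (edgeR adjusted p = 0.162) without replicate 4 alone. With all kidneys kept, Irx2 was called lower by DESeq2 (-0.35, adjusted p = 0.0383). It was also called lower in 1 edgeR fit of all 19 kidneys (-0.35, adjusted p = 0.0390, 1291 genes called). Wt1, 1 of 4 podocyte factors, stood at -0.55 (edgeR adjusted p = 0.259) with all kidneys and was called only in the fit of all 19 (edgeR adjusted p = 0.0491). Its value was -0.40 without replicate 4 and -0.35 with neither replicate 3 nor 4 (edgeR adjusted p = 0.212 and 0.142). This comparison shares its kidneys with the comparisons of rCD5L with PBS.

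The 8 factors were set beside 4 lists of other kidney transcription factors. In CD5L KO against WT mice given PBS, 0 of 8 other proximal tubule factors, 0 of 18 other distal nephron and collecting duct factors, 0 of 7 tested nephron progenitor and early nephron factors and 1 of 4 podocyte factors were called, with medians of 0.04, 0.02, -0.01 and -0.21, beside 10.5% of all genes called. The median of the 8 factors was 0.02 and that of all genes -0.0046. The 0 of 18 changed with the processing. DESeq2 called 2 of the 18 higher and 1 lower (2498 of 17579 genes called). With the replicate block 2 of the 18 were called higher (2132 genes called), and 2 without WT replicate 3 (2062 genes called). With the block and the length offset 1 of the 8 other proximal tubule factors was called higher (1486 genes called). In the edgeR fit of the 2 groups the 1 called factor was Wt1, a zinc finger regulator of podocytes. Wt1 was at 17.1 ± 1.35 CPM (SD, n = 4) in CD5L KO and 21.0 ± 0.893 (SD, n = 5) in WT, a log2 fold change of -0.30 (SE 0.0743, edgeR adjusted p = 0.0245). Over 16 alternatives its log2 fold change stayed between -0.35 and -0.26, but it was called in 8 of them, with adjusted p-values from 0.00813 to 0.542. It was not called without CD5L KO replicate 2, 3 or 4 (0.0557, 0.0672 and 0.0693) or WT replicate 4 (0.0593), nor without the filter (0.0512), with the gene length offset alone or with the replicate block (0.0588 and 0.0719) or in 1 fit of all 19 kidneys (0.542). The podocyte marker sum moved the same way, with 534 to 619 CPM in CD5L KO and 602 to 706 in WT, and 0 of its 5 markers were called. With the replicate block 2 of the 5 markers and 2 of the 4 podocyte factors were called lower. Among the markers of other cells, 5 of 8 of fibroblasts and myofibroblasts, 2 of 5 of endothelium and 1 of 8 of macrophages were called lower, and 1 of 6 of injured tubules and 1 of 6 tested of the distal convoluted and connecting tubule were called higher. Of the 19 proximal tubule, 6 thick ascending limb, 10 collecting duct, 6 lymphocyte, 5 urothelium and 4 tested epididymis markers, 0 were called. The same 10.5% of all genes stands beside these counts. In 1 fit of all 19 kidneys 0 of the markers in these 5 lists were called, and the spread of the groups given rCD5L also enters that fit. The part of these cells in the Wt1 value was not tested.

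In WT mice given rCD5L, 17 of the 18 other distal nephron and collecting duct factors had a positive log2 fold change, with a median of 0.17 against 0.00 over all genes, and 0 were called. For 4 of the 8 other proximal tubule factors it was positive (median 0.01), for 6 of the 7 tested progenitor factors (median 0.17) and for 3 of the 4 podocyte factors (median 0.14). The 8 factors had 6 positive values and a median of 0.08. Tfap2a, the AP-2 relative of Tfap2b, had a log2 fold change of 0.48 (edgeR adjusted p = 0.121), Emx2, a homeobox gene of the collecting duct lineage, of 0.31 (edgeR adjusted p = 0.115) and Sox4, an early nephron factor, of 0.40 (edgeR adjusted p = 0.0952), all 3 chosen after their values were seen.

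**Figure D3:**
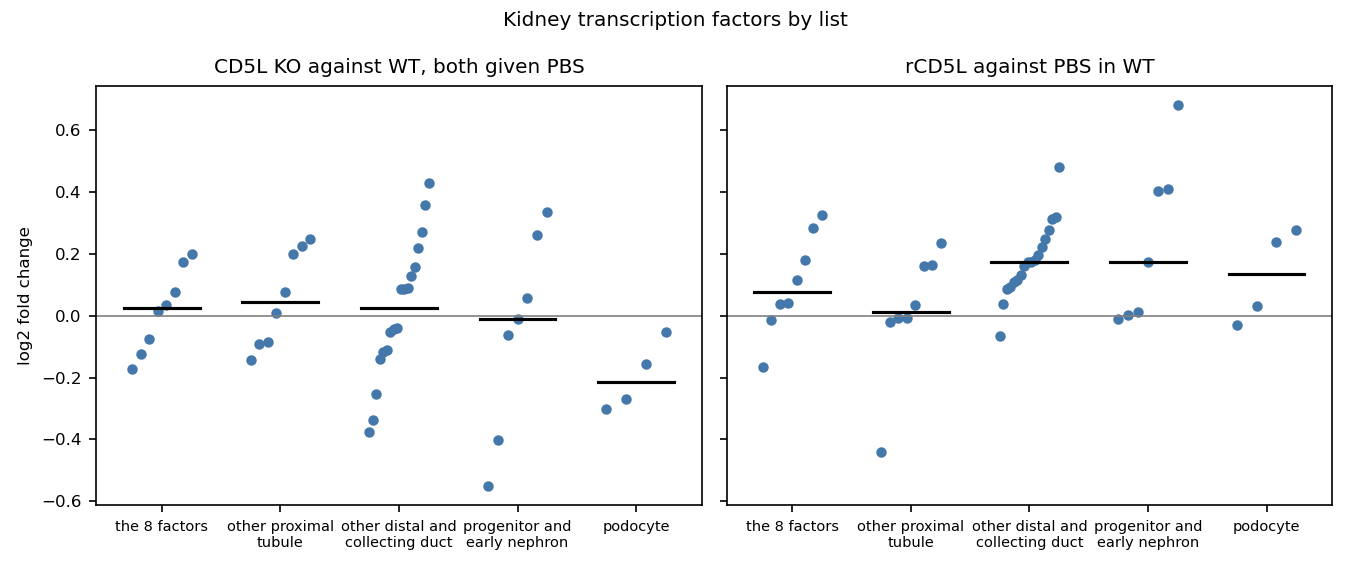
Log2 fold change of each tested factor in the 5 lists, with the median as a line, for CD5L KO against WT given PBS and for rCD5L against PBS in WT mice. In the right panel 17 of the 18 other distal nephron and collecting duct factors and 6 of the 8 factors lie above 0.

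Across kidneys, the level of Hnf4a followed that of the proximal tubule markers. With the group means removed, Pearson's r between log2 CPM of Hnf4a and of the summed markers was 0.97 over 19 kidneys and 0.86 over the 18 without replicate 4. Esrrg followed the distal convoluted and connecting tubule sum (0.87, and 0.72 without replicate 4). For Pax2 the value with the thick ascending limb sum was 0.37 over 19 kidneys and 0.74 without replicate 4, and for Maf that with the proximal tubule sum went from 0.78 to 0.15. Maf and the macrophage sum had an r of -0.78, and of -0.16 without replicate 4. With neither replicate 3 nor 4, over 17 kidneys, these values were 0.85 for Hnf4a, 0.71 for Esrrg, 0.67 for Pax2, and 0.56 and -0.44 for Maf. Other pairs had high values too, and not all pairs are given. Without replicate 4, Pax2 stood at 0.61 with the proximal tubule sum (0.02 over 19 kidneys). Tfap2b stood at 0.58 with the thick ascending limb sum (0.60 over 19 kidneys). Both values of a point come from 1 library, so that depth and tissue makeup are shared, and the values are descriptions.

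**Figure D4:**
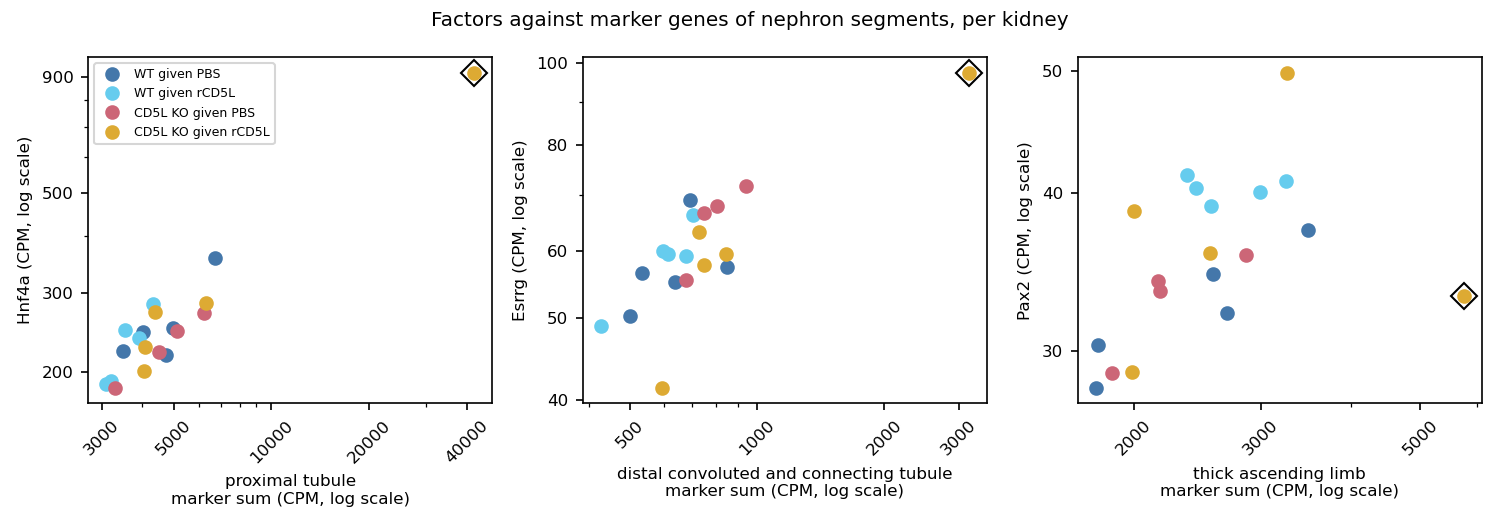
CPM of Hnf4a, Esrrg and Pax2 in each kidney against the summed CPM of a list of segment markers, both on log axes. The diamond marks replicate 4 of CD5L KO given rCD5L, at 921 CPM of Hnf4a and 42178 CPM of proximal tubule markers.

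The factors differed in how they moved together. Over 18 kidneys without replicate 4, the highest r between 2 of them was 0.76 for Hnf4g with Esrrg (0.87 over 19), and the lowest was -0.60 for Hnf4g with Pax2 (-0.59 over 19). Hnf4a and Hnf4g, the 2 relatives, had an r of 0.50 over 19 kidneys and of -0.18 without replicate 4. Pax2 and Pax8 stood at 0.41 and 0.36. Hnf4a with Maf fell from 0.84 to 0.45 when that kidney was left out, Hnf4a with Lhx1 from 0.72 to 0.31 and Hnf4a with Esrrg from 0.60 to -0.08. Replicate 3 moved the values too. With neither kidney, over 17, Hnf4a with Maf stood at 0.77, Pax2 with Tfap2b at 0.80 (0.37 over 19), Hnf4g with Esrrg at 0.57, Hnf4g with Pax2 at -0.28 and Pax2 with Pax8 at 0.03.

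**Figure D5:**
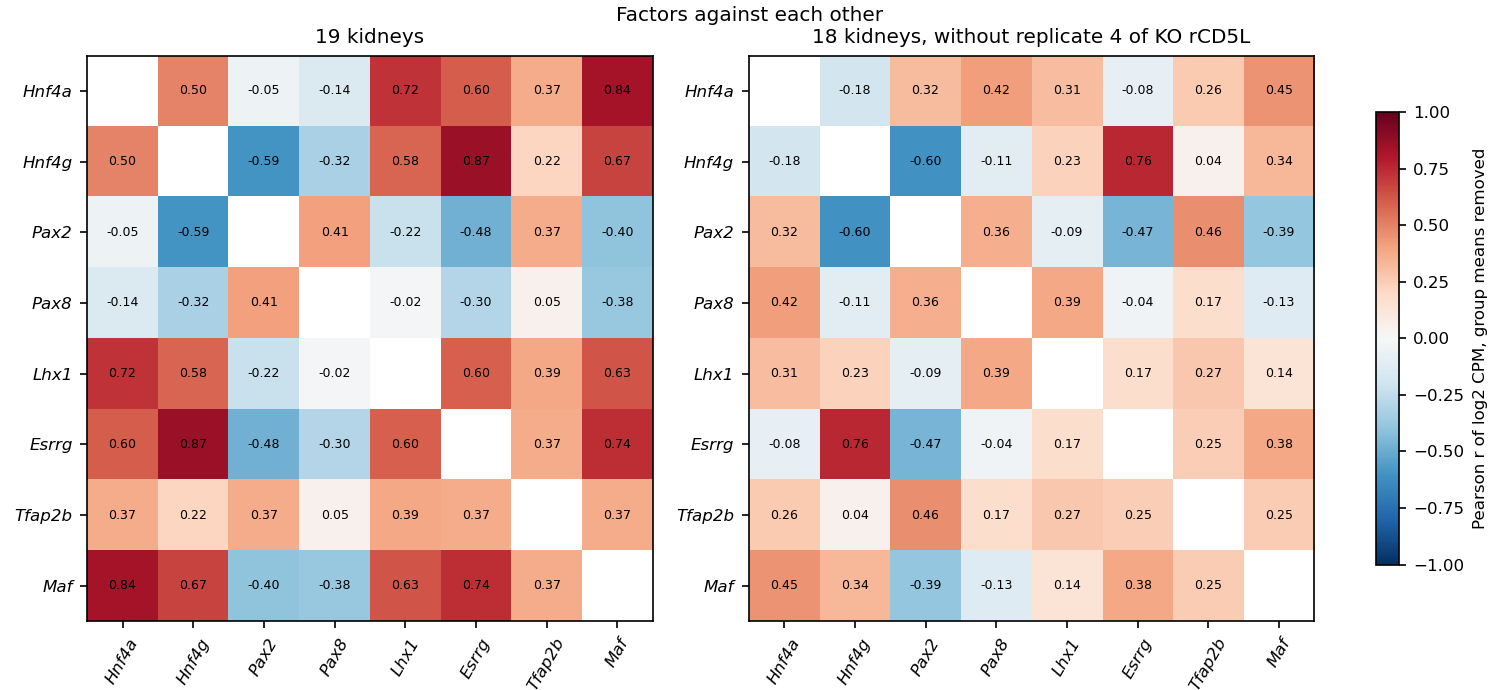
Pearson's r of log2 CPM between each 2 factors after the group means were removed, over 19 kidneys on the left and over 18 without replicate 4 of CD5L KO given rCD5L on the right. The value of Hnf4a with Maf goes from 0.84 to 0.45, and that of Hnf4g with Esrrg from 0.87 to 0.76.

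Likeness was measured by r over 19 kidneys, again with the group means removed, for the 14325 genes whose log2 CPM averaged 1 or more, and genes among the 3 highest are given for each factor. For Hnf4a they were Pdzk1, a scaffold of proximal tubule transporters, Acot4 and Abhd3, with r of 0.98 each and 0.93, 0.92 and 0.92 without replicate 4. For Hnf4g they included Slc19a3 and Cyp2j9, at 0.92 and 0.90, and at 0.85 and 0.89 without replicate 4. For Pax2 they included Pigt, at 0.94 over 19 kidneys and 0.94 without replicate 4. Pax8 was most like Safb, Ncoa5 and Ccdc120 (0.87, 0.83 and 0.82, and 0.85, 0.84 and 0.81 without replicate 4). For Lhx1 they included Mmaa and Lig3, at 0.92 and 0.88, and at 0.83 and 0.78 without that kidney. Esrrg was most like Zfp35, Itpr2 and Slc25a36 (0.94, 0.93 and 0.93). Without replicate 4 these were 0.91, 0.86 and 0.85, in places 1, 17 and 22 among all genes. Tfap2b was most like Prox1, a homeobox factor, Bag4 and Atp6v0d2, a proton pump subunit of intercalated cells (0.84, 0.82 and 0.82, and 0.82, 0.81 and 0.82 without replicate 4). Maf was most like Ank3, Slc4a4, the basolateral bicarbonate cotransporter of the proximal tubule, and Asb13 (0.94 each), which went to 0.83, 0.83 and 0.81 without replicate 4. With neither replicate 3 nor 4, the r of all the genes named here for likeness lay between 0.72 and 0.94.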

How the data were processed

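Per the labels and the study's methods, paired-end reads were trimmed (Trimmomatic), mapped to GRCm38 by HISAT2 and assigned to genes by featureCounts. Versions and the strand setting are not given in the sources used here. The authors deposited raw counts and FPKM values per gene, and each kidney is 1 mouse.

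The whole count table was tested with the quasi-likelihood test of edgeR 4.0.16 in R 4.3.3. Scaling was by TMM, genes were kept by filterByExpr (minimum count 10), and p-values were adjusted by Benjamini-Hochberg with a threshold of 0.05. A fit held the 2 groups compared, or all 4 for the interaction. In the alternative of 1 fit of all 19 kidneys, the spread of groups that are not compared enters too, with that of replicate 4 of CD5L KO given rCD5L. SE is the log2 fold change divided by the root of the F statistic. CPM used TMM over 19 kidneys, likeness used a prior count of 2, and FPKM served only to compare levels between genes. DESeq2 1.42.0, RLE scaling, no filter, 1 fit of all 19 kidneys, a block for the replicate number, an offset for gene length and leaving out each replicate were tried as alternatives. The fits were tested on simulated data.

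The 8 factors and all gene lists were chosen with earlier results of these data known. Every factor is described in each comparison, other factors are named where called (3 others were chosen after their values were seen), markers by the highest mean CPM of a list, and the 3 genes of highest r for likeness, of which some are not reported here. Kidneys of 1 group differed beyond sampling noise in all 36 pairs (chi-square per degree of freedom 6.86 to 321). The labels call them biological replicates. Precision was limited by the spread between mice.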

Additional observations from a re-analysis of the deposited data

Results flagged for a closer look

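In 32 sets of 4 or 5 kidneys (8 factors in 4 groups), 2 held a kidney far from the others, and chance gives about 1 in 20. Hnf4a in replicate 4 of CD5L KO given rCD5L was at 921 CPM with the nearest kidney of its group at 284 CPM. Hnf4a in replicate 3 of WT given PBS was at 358 CPM with the nearest at 251. Both kidneys also had the highest proximal tubule marker sum of their group, 42178 and 6713 CPM, and the part of this in the Hnf4a level was not tested.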

How the results depend on the processing

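The number of factors called stayed at 0 in all comparisons and alternatives except rCD5L against PBS in WT mice, where it was 1 (Pax2) with DESeq2 and 1 (Pax2) without the filter; the cause was not tested. Apart from leaving out a replicate, 9 values changed sign, and none of them was called. In CD5L KO mice, Lhx1 went to -0.00043 without the filter, to -0.037 with the replicate block, to -0.022 with the block and the length offset and to -0.13 with neither replicate 3 nor 4. In WT mice, Hnf4g went to 0.012 with the length offset and 0.018 with the replicate block added, and Maf to -0.010 and -0.012. Between genotypes given rCD5L, Maf went to -0.040 with neither replicate 3 nor 4.

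Leaving out 1 replicate changed the sign of 28 values. The other 428 kept their direction and their side of the threshold, though some moved in size, such as Hnf4a without replicate 4 of CD5L KO given rCD5L, from 0.71 to 0.09 in CD5L KO and from 0.90 to 0.25 in the interaction. In the interaction Hnf4g ranged from 0.054 to 0.41 and Lhx1 from -0.36 to -0.042. The ranges were -0.032 to 0.076 for Pax2 and -0.025 to 0.093 for Lhx1 (CD5L KO against WT, PBS), -0.18 to 0.12 for Lhx1, -0.24 to 0.083 for Esrrg and -0.033 to 0.35 for Maf (rCD5L in CD5L KO), -0.086 to 0.050 for Hnf4g, -0.0095 to 0.11 for Esrrg and -0.028 to 0.089 for Maf (rCD5L in WT), -0.0067 to 0.10 for Pax8, -0.10 to 0.23 for Esrrg and -0.15 to 0.24 for Maf (genotypes given rCD5L), and -0.27 to 0.063 for Esrrg and -0.070 to 0.32 for Maf (interaction).

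Same-numbered kidneys of different groups had correlations of -0.19 to 0.17 in 27 pairs, of which 6 were over 0.1. In CD5L KO, 3 of the 4 pairs between PBS and rCD5L were (0.17, 0.10 and 0.14) and the fourth was at 0.017, so not every pair of any 2 groups deviated together and the numbers were not taken to pair the kidneys. With the replicate block Pax2 in WT mice stood at 0.33 with 0 factors called. Over all genes, the calls in CD5L KO against WT given PBS went from 1850 to 12 in 1 fit of all 19 kidneys and to between 1015 and 1215 without CD5L KO replicate 1 or 2 or WT replicate 2 or 4. In rCD5L against PBS in WT mice they went from 0 to 471 with DESeq2, 137 without the filter and 39 without PBS replicate 1, and in CD5L KO mice from 0 to 10 with DESeq2. Between genotypes given rCD5L they went from 0 to 120 with DESeq2, 1 without CD5L KO replicate 2 and 1291 in 1 fit of all 19 kidneys, and with neither replicate 3 nor 4 to 644. Wide intervals in the CD5L KO group given rCD5L limit what its comparisons can show.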
